A study of Mus musculus with 12 samples.

Results

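The 10 genes described here belong to the circadian clock, the daily timer that runs in nearly every cell of the body. They were chosen by name and comprise the activators Bmal1 (also written Arntl) and Clock, the repressors Per1, Per2, Per3, and Cry1, the nuclear receptors Nr1d1 and Nr1d2, the output gene Dbp, and the repressor Ciart. They are 10 of the 40551 mouse genes counted, and all 10 passed the filter on low counts that kept 15070 genes. The data are total RNA-seq of 12 mouse livers, 3 each of 4 genotypes. WT livers were compared with Mcl1Δhep livers (labelled Mcl1 KO), in which Cre driven by the albumin promoter deletes floxed Mcl1, an antiapoptotic gene, in hepatocytes. Sting1-/- livers (labelled Sting1 KO) lack the innate DNA-sensing adaptor STING in every cell. Mcl1Δhep Sting1-/- livers (labelled Mcl1 Sting1 DKO) carry both alterations, so that their Sting1-/- control shares the constitutive loss of Sting1. WT and Mcl1Δhep livers for these transcriptomes came from mice aged 2 months, mice of both sexes were used, and the labels give neither age nor sex for a single liver. The livers are whole tissue, so that a change in the number of cells of a type and a change in RNA per cell cannot be told apart.

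In the mammalian clock, BMAL1 pairs with CLOCK, and the pair binds E-box elements and drives transcription of the Per and Cry genes, Nr1d1, Nr1d2, Dbp, and Ciart. PER and CRY proteins then enter the nucleus and repress the pair, CIART (also called CHRONO) represses it too, and REV-ERBα and REV-ERBβ, the products of Nr1d1 and Nr1d2, repress Bmal1 through ROR elements. DBP binds D-box elements and carries the rhythm to genes of liver metabolism. In mouse liver these transcripts swing widely over the day, with Bmal1 peaking when Dbp and the Per genes are low. The level of a clock gene in 1 liver therefore depends on the hour at which the tissue was taken. The hour of collection, the light schedule, and the time of the last meal are not given in the sources used here. The part of collection time in the differences below was therefore not tested, and the values of single livers are given for this reason.

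Elements of the kinds by which these genes are wired to each other were looked for in the RefSeq promoter windows of build GRCm38.p6. The windows reach from 250 bases before each start to 50 after it. The letters searched on both strands were CACGTG for the E-box, CACGTT for the E-prime box (AACGTG on the other strand), TTANGTAA for the D-box, and TAGGTCA for the ROR element. No 2 of the motifs found overlapped. Of the 10 genes, 9 had 13 windows in the table, and Per2 had no entry. The stretches that hold a match are shown, 5′ to 3′ on the strand of the gene with the motif in capitals. The proteins of this loop act through elements of these kinds, and binding to the matches shown was not tested.
Ciart (chr3:95882258-95882353, minus strand, E-boxes): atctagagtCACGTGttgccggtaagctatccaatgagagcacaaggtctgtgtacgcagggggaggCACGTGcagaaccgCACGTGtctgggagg
Per1 (chr11:69098774-69098797, plus strand, E-box): acccaagtcCACGTGcagggatgt
Cry1 (chr10:85185100-85185142, minus strand, E-prime box, then E-box): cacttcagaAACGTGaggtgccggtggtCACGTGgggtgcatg
Nr1d1 (chr11:98775391-98775414, minus strand, E-prime box): acagatctcAACGTGccggctgct
Per3 (chr4:151044807-151044879, minus strand, D-boxes): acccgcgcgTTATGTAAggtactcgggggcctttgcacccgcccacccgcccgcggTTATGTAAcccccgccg
Bmal1 (chr7:113207532-113207556, plus strand, ROR element): ggcagaaagTAGGTCAgggacggag
Ciart carried 3 E-boxes that started 116, 58, and 44 bases before its start. Such an E-box was present in 7.15% of all 32851 promoter windows, and 3 of the 9 clock genes had at least 1. The E-prime box was present in 4.68% of windows, the D-box in 2.32%, and the ROR element in 2.61%. Both D-boxes of Per3, at 205 and 158 bases before its start, lay outside the transcript. The ROR element of Bmal1 began at base 31 of its transcript. Clock, Nr1d2, and Dbp had none of these letters in their windows.

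The libraries held 28826367 to 45266387 counts on genes. Mcl1, the deleted gene, had 90.2 to 104 CPM (counts scaled to a common library size of 1000000 with TMM factors) in WT and 77.0 to 90.1 in Sting1-/- livers, against 25.0 to 34.0 in Mcl1Δhep and 18.1 to 26.0 in Mcl1Δhep Sting1-/- livers, in keeping with the labels. Hepatocyte markers such as Alb were high in all 12 libraries, with a summed 88615 to 152828 CPM over 6 genes. Y-linked genes summed to 157 and 152 CPM in WT replicates 2 and 3 and to 141 CPM in Mcl1Δhep Sting1-/- replicate 1, and to at most 0.190 CPM in the other 9 libraries. The 6 skeletal muscle markers summed to 1233 CPM in Mcl1Δhep replicate 3 and to at most 6.53 CPM elsewhere. Small structured RNAs took 2.37% and 1.36% of the counts of Mcl1Δhep replicates 2 and 3, and 0.172% to 0.897% of those of the other 10 libraries. The neutrophil marker list summed to 6.60 to 18.8 CPM in Mcl1Δhep livers and 1.79 to 2.74 CPM in WT livers, with 3 of its 3 tested genes called higher and Ly6g at 0 in all 3 WT livers. Of the 6 Kupffer cell markers, 3 were called higher in Mcl1Δhep livers (570 to 654 CPM summed, against 319 to 512 in WT), as were 3 of the 5 stellate cell markers (500 to 578 CPM summed, against 331 to 480). Of the endothelial, cholangiocyte, and lymphocyte markers, 0 were called. Among all tested genes, 10.8% were called higher and 9.43% lower in Mcl1Δhep against WT livers. The part that these cells, the muscle RNA, sex, or small RNAs have in the values of the clock genes was not tested, apart from the fits that are named below.

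Per length of transcript, Dbp was the most abundant of the 10 genes, with a median of 139 TPM (counts per base of exon, scaled to the same total in each library) over the 12 libraries and a range of 36.0 to 192. Nr1d2 followed at a median of 47.3 TPM and Nr1d1 at 25.1 TPM, and the range of Nr1d2, 28.4 to 52.1 TPM, met the lower end of that of Dbp. Ciart, Clock, Per2, Per3, Per1, and Cry1 had medians of 12.2, 8.72, 8.10, 7.25, 5.26, and 4.53 TPM, and their ranges overlapped. Bmal1 was the lowest of the 10, with a median of 0.554 TPM and a range of 0.273 to 5.28. Its counts ran from 32 to 479 per library.

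**Figure D1:**
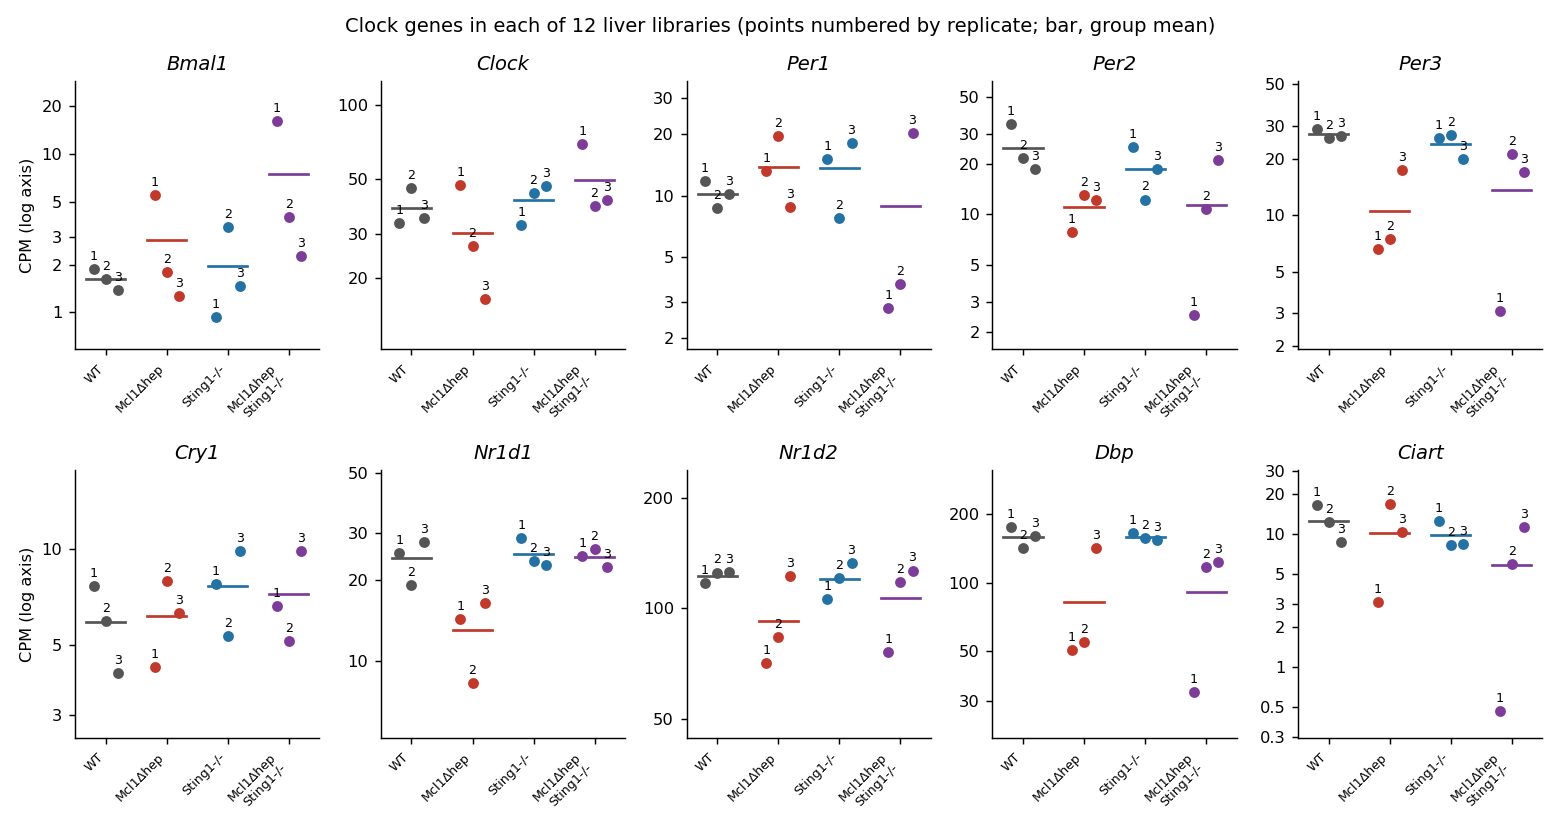
Each of the 10 clock genes in the 12 liver libraries, in CPM on a log axis, by genotype. Points are single livers with their replicate numbers, and bars are group means. Mcl1Δhep Sting1-/- replicate 1 has the highest Bmal1 (16.0 CPM) and the lowest Ciart (0.468 CPM), and Nr1d1 is lower in all 3 Mcl1Δhep livers than in the other 9.

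Bmal1 (chromosome 7, 112806152 to 112914735, plus strand, in GRCm39), the activator whose transcript peaks when Dbp and the Per genes are low, was nearly even in WT livers at 1.87, 1.63, and 1.39 CPM. In Mcl1Δhep livers it had 5.52, 1.81, and 1.26 CPM, in Sting1-/- livers 0.931, 3.45, and 1.47 CPM, and in Mcl1Δhep Sting1-/- livers 16.0, 3.97, and 2.27 CPM. A single liver was high in each of the 3 mutant groups, and all 3 Mcl1Δhep Sting1-/- livers were above the 3 WT livers. The log2 fold change of Bmal1 was 0.83 (SE 0.74, adjusted p = 0.441, edgeR's quasi-likelihood test with Benjamini-Hochberg adjustment over all tested genes) in Mcl1Δhep against WT livers and 1.92 (SE 0.74, adjusted p = 0.331) in Mcl1Δhep Sting1-/- against Sting1-/- livers. Without Mcl1Δhep replicate 1, the former was -0.092, and without Mcl1Δhep Sting1-/- replicate 1, the latter was 0.68.

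Clock, the partner of BMAL1 and the less rhythmic of the pair, had 33.1, 46.2, and 34.9 CPM in WT livers and 47.3, 27.0, and 16.4 CPM in Mcl1Δhep livers. In Sting1-/- livers it had 32.6, 44.2, and 46.8 CPM, and in Mcl1Δhep Sting1-/- livers 69.3, 39.1, and 41.0 CPM. All groups overlapped. The livers with the most Bmal1 within the Mcl1Δhep and the Mcl1Δhep Sting1-/- groups also had the most Clock. This did not hold in the other groups. The WT liver with the most Bmal1 had the least Clock of its group, and different Sting1-/- livers had the most Bmal1 and the most Clock. Its log2 fold change was -0.33 (SE 0.34, adjusted p = 0.4998, edgeR) in Mcl1Δhep against WT livers and 0.27 (SE 0.34, adjusted p = 0.847) in Mcl1Δhep Sting1-/- against Sting1-/- livers.

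Of the Period genes, whose proteins carry the repression of BMAL1 and CLOCK, Per3 (chromosome 4, 151081373 to 151129140, minus strand) differed most between Mcl1Δhep and WT livers. It had 28.9, 25.8, and 26.4 CPM in WT and 6.64, 7.43, and 17.4 CPM in Mcl1Δhep livers, with no overlap. The log2 fold change was -1.37 (SE 0.53, adjusted p = 0.0861, edgeR), which did not pass the threshold of 0.05. In Sting1-/- livers Per3 had 25.7, 26.7, and 19.9 CPM, and in Mcl1Δhep Sting1-/- livers 3.07, 21.1, and 17.0 CPM, where a single liver lay far below the rest. Per2 had 34.5, 21.5, and 18.6 CPM in WT and 7.82, 13.0, and 12.1 CPM in Mcl1Δhep livers, again with no overlap (log2 fold change -1.18, SE 0.55, adjusted p = 0.139, edgeR). It had 25.0, 12.2, and 18.6 CPM in Sting1-/- and 2.51, 10.7, and 21.0 CPM in Mcl1Δhep Sting1-/- livers, and these groups overlapped. The calls for both genes depended on the libraries in the model. Without Mcl1Δhep Sting1-/- replicate 1, which belongs to neither group, Per3 (log2 fold change -1.38, adjusted p = 0.0151, edgeR) and Per2 (-1.19, adjusted p = 0.0364) passed in Mcl1Δhep against WT livers, where 18.8% of all tested genes were called.

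Per1 and Cry1, the other repressors of the loop, had groups that overlapped in each of the 5 comparisons of genotypes. Per1, the Period gene that also responds fast to hormones and feeding, had 11.8, 8.66, and 10.2 CPM in WT, 13.2, 19.6, and 8.82 CPM in Mcl1Δhep, and 15.2, 7.72, and 18.2 CPM in Sting1-/- livers. In Mcl1Δhep Sting1-/- livers it had 2.81, 3.68, and 20.3 CPM, so that this group held both the 2 lowest and the highest of the 12 values. Its log2 fold change there against Sting1-/- livers was -0.62 (SE 0.61, adjusted p = 0.804, edgeR). Without Mcl1Δhep Sting1-/- replicate 3, the liver with the highest value, it was -2.05 (adjusted p = 0.0293), where 1.62% of all tested genes were called. Cry1 had between 4.06 and 7.65 CPM in WT, 4.26 and 7.92 CPM in Mcl1Δhep, 5.31 and 9.84 CPM in Sting1-/-, and 5.12 and 9.85 CPM in Mcl1Δhep Sting1-/- livers. Its log2 fold change was 0.06 (SE 0.33, adjusted p = 0.916, edgeR) in Mcl1Δhep against WT livers, and its spread within a genotype was nearly the same in all 4 groups, at 0.88 to 0.93 on the log2 scale.

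Nr1d1 (chromosome 11, 98658752 to 98666188, minus strand), which encodes the heme-binding repressor REV-ERBα, was the only 1 of the 10 genes that passed the test in any comparison. It had 25.3, 19.3, and 27.9 CPM in WT livers and 14.4, 8.29, and 16.5 CPM in Mcl1Δhep livers. In Sting1-/- livers it had 28.7, 23.6, and 22.8 CPM, and in Mcl1Δhep Sting1-/- livers 24.7, 26.1, and 22.5 CPM. The 3 Mcl1Δhep livers were below the other 9, which lay close together. Nr1d1 fell in Mcl1Δhep against WT livers with a log2 fold change of -0.88 (SE 0.23, adjusted p = 0.0206, edgeR). The call was lost without WT replicate 3 (-0.77, adjusted p = 0.0746) and without Mcl1Δhep replicate 2 (-0.64, adjusted p = 0.0521), the liver with the largest share of small structured RNAs. It was also lost when that share (-0.68, adjusted p = 0.277) or the level of Y-linked genes (-0.91, adjusted p = 0.0601) entered the model, and when the model held only the WT and Mcl1Δhep libraries (-0.86, adjusted p = 0.0916), and the direction stayed the same in all of these.

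Reads of Nr1d1 may also come from the opposite strand. Its exons share 1694 bases, 52.3% of their length, with exons of Thra, the gene of a thyroid hormone receptor, and the sources used here do not say whether the counting used strand. Thra had 10.5, 10.5, and 8.98 CPM in WT livers and 10.7, 6.18, and 7.75 CPM in Mcl1Δhep livers, a log2 fold change of -0.28 (SE 0.23, adjusted p = 0.387, edgeR). For the other members, the share of exon length that overlaps a protein-coding gene on the opposite strand was at most 15.5%, reached by Dbp with Sphk2, followed by 11.9% for Clock with Tmem165. In Mcl1Δhep against WT livers, Tmem165 was called higher (log2 fold change 0.74, SE 0.17, adjusted p = 0.0137, edgeR). Sphk2 was not called there (-0.39, SE 0.35, adjusted p = 0.430, edgeR). The part of such reads in the counts of the clock genes was not tested.

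Nr1d2, which encodes REV-ERBβ, had 117, 125, and 125 CPM in WT livers and 70.9, 83.7, and 123 CPM in Mcl1Δhep livers. It had 106, 121, and 133 CPM in Sting1-/- and 76.2, 118, and 127 CPM in Mcl1Δhep Sting1-/- livers. The WT and Mcl1Δhep values touched only through Mcl1Δhep replicate 3. Its log2 fold change was -0.41 (SE 0.22, adjusted p = 0.207, edgeR) in Mcl1Δhep against WT livers. Unlike Nr1d1, it was low in Mcl1Δhep Sting1-/- replicate 1.

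Dbp (chromosome 7, 45354512 to 45359627, plus strand), a transcription factor under direct control of the BMAL1 and CLOCK pair, was the most even of the 10 genes in Sting1-/- livers, with 166, 158, and 155 CPM, and was at 175, 142, and 161 CPM in WT livers. In Mcl1Δhep livers it had 50.5, 54.4, and 142 CPM, and in Mcl1Δhep Sting1-/- livers 32.8, 117, and 123 CPM. Dbp was lower in both groups with Mcl1 deletion than in the livers with Mcl1 without overlap, although Mcl1Δhep replicate 3 and WT replicate 2 were almost equal. The log2 fold change was -0.96 (SE 0.46, adjusted p = 0.151, edgeR) in Mcl1Δhep against WT livers and -0.81 (SE 0.46, adjusted p = 0.567) in Mcl1Δhep Sting1-/- against Sting1-/- livers. Without Mcl1Δhep replicate 3, the liver of its group with the most Dbp and the most Per3, the former was -1.60 and passed (adjusted p = 0.0289, edgeR). Per3 passed there too (-1.94, adjusted p = 0.0400), where 16.7% of all tested genes were called. Without Mcl1Δhep Sting1-/- replicate 1, the latter was -0.41.

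Ciart (chromosome 3, 95785815 to 95789991, minus strand), a repressor of the BMAL1 and CLOCK pair, lies 215 kb from Mcl1 on the same chromosome. It had 16.4, 12.2, and 8.68 CPM in WT, 3.08, 16.9, and 10.4 CPM in Mcl1Δhep, and 12.6, 8.31, and 8.44 CPM in Sting1-/- livers. In Mcl1Δhep Sting1-/- livers it had 0.468, 5.99, and 11.2 CPM, and the lowest of these rested on 14 counts. Its levels spanned 36.2-fold over the 12 libraries, the widest of the 10 genes, and its groups overlapped in all comparisons. The log2 fold change was -0.30 (SE 0.75, adjusted p = 0.801, edgeR) in Mcl1Δhep against WT livers and -0.72 (SE 0.75, adjusted p = 0.817) in Mcl1Δhep Sting1-/- against Sting1-/- livers.

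**Figure D2:**
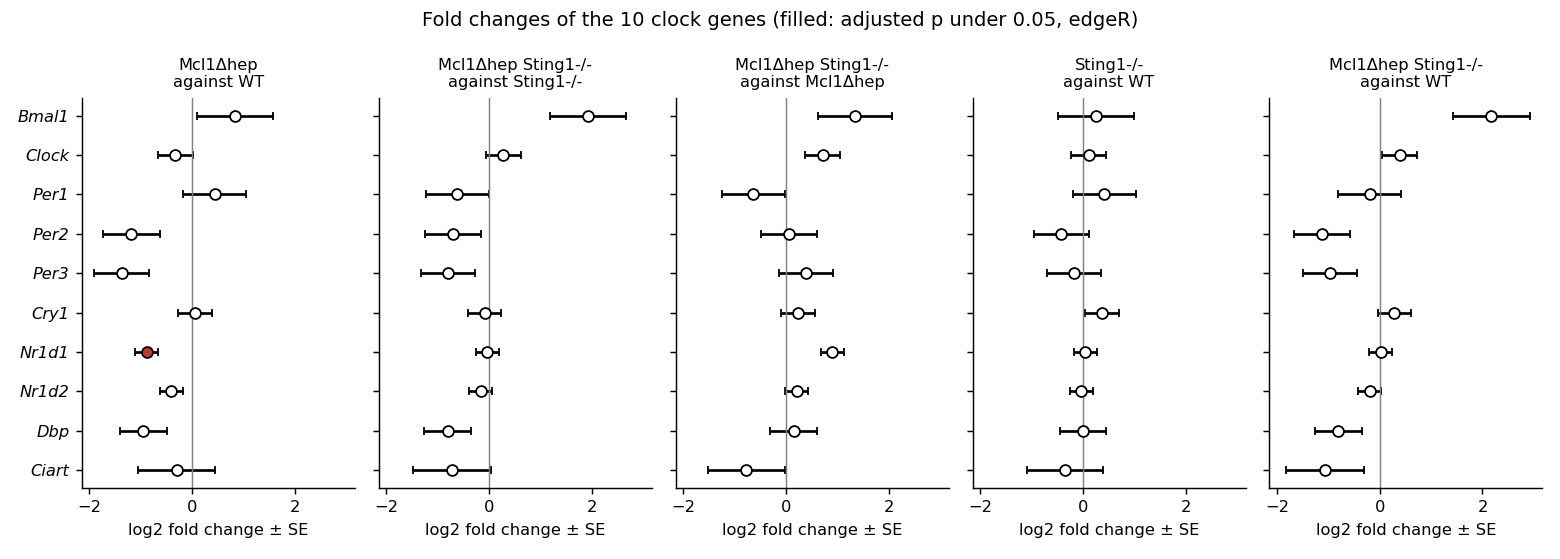
Log2 fold changes of the 10 clock genes with their standard errors from edgeR in the 5 comparisons of genotypes, 3 livers each. Filled points have an adjusted p under 0.05, which held for Nr1d1 in Mcl1Δhep against WT livers (-0.88) and for no other point.

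Counted over the genes, Mcl1 deletion in the presence of Sting1 (Mcl1Δhep against WT) gave 1 called member of 10, lower in Mcl1Δhep livers, where 9.43% of all tested genes were called lower and 20.2% in either direction. For 4 members (Per2, Per3, Nr1d1, and Dbp) the Mcl1Δhep libraries were below the WT libraries without overlap, as they were for 17.1% of all tested genes. The median log2 fold change of the 10 was -0.37, against -0.0049 for all tested genes, with 3 genes above 0 and 7 below.

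Mcl1 deletion without Sting1 (Mcl1Δhep Sting1-/- against Sting1-/-) gave 0 called members, with edgeR and with DESeq2. There edgeR called 0.803% of all tested genes, and DESeq2 called 3.16% of the genes it tested. Bmal1 was the only member with an unadjusted p under 0.05, beside 11.3% of all tested genes. Dbp was lower in all 3 Mcl1Δhep Sting1-/- livers than in the 3 Sting1-/- livers, as were 10.8% of all tested genes. The median log2 fold change of the members was -0.39, against -0.01 for all tested genes. The members' log2 fold changes ran from -0.81 to 1.92, with 2 genes above 0 and 8 below.

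The comparison of Mcl1Δhep Sting1-/- with Mcl1Δhep livers asks what the loss of Sting1 changes when Mcl1 is deleted, and it gave 0 called members with edgeR, which called 0% of all tested genes there, and 1 (Nr1d1) with DESeq2, which called 4.74% of the genes it tested. Nr1d1 was also the only member with an unadjusted p under 0.05 in edgeR, beside 20.6% of all tested genes. It was higher in all 3 Mcl1Δhep Sting1-/- livers, as were 8.97% of all tested genes, with a log2 fold change of 0.90 (SE 0.23, adjusted p = 0.133 in edgeR and 0.0160 in DESeq2). Without Mcl1Δhep replicate 1, edgeR called Nr1d1 (0.98, adjusted p = 0.0259) and Clock (1.203, adjusted p = 0.0211) higher, together with 20.2% of all genes tested without that library. With all libraries, the log2 fold change of Clock was 0.72 (SE 0.34, adjusted p = 0.252, edgeR), and that of Bmal1 was 1.35 (SE 0.72, adjusted p = 0.304). The lowest value of the 10 was that of Ciart, at -0.77 (SE 0.76, adjusted p = 0.585).

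Loss of Sting1 alone (Sting1-/- against WT) gave 0 called members, 0 with DESeq2, and 0 with an unadjusted p under 0.05. In edgeR, 0% of all tested genes were called and 5.45% had an unadjusted p under 0.05. DESeq2 called 0.326% of the genes it tested. The 10 log2 fold changes ran from -0.42 (Per2, SE 0.54) to 0.42 (Per1, SE 0.61). All 10 genes overlapped between these groups, against 12.5% of all tested genes that did not. With standard errors of 0.22 to 0.75 on the log2 scale, an absence of change was not shown.

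Mcl1Δhep Sting1-/- against WT livers, which differ in both genes, gave 0 called members with edgeR and with DESeq2. There edgeR called 1.82% of all tested genes, and DESeq2 called 4.72% of the genes it tested. In edgeR, 1 member (Bmal1) had an unadjusted p under 0.05. It was higher without overlap (log2 fold change 2.17, SE 0.75, adjusted p = 0.199, edgeR), as were 11.5% of all tested genes, and it was 0.93 without Mcl1Δhep Sting1-/- replicate 1. Per3 (-0.97, SE 0.53, adjusted p = 0.442) and Dbp (-0.81, SE 0.46, adjusted p = 0.464) were lower without overlap, as were 11.3% of all tested genes. Per2 had the lowest log2 fold change, -1.12 (SE 0.55, adjusted p = 0.386), and its groups overlapped. These comparisons share WT, Sting1-/-, or Mcl1Δhep libraries with those above and are not independent of them.

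The difference between the effects of Mcl1 deletion with and without Sting1 was tested as an interaction. It gave 0 called members with edgeR and with DESeq2. There edgeR called 0% of all tested genes, and 14.4% had an unadjusted p under 0.05. DESeq2 called 1.14% of the genes it tested. Nr1d1 was the only member with an unadjusted p under 0.05, with a difference of 0.85 on the log2 scale (SE 0.32, adjusted p = 0.2998, edgeR). The difference was thus not shown for Nr1d1, although the gene passed the test in only 1 of the 2 settings. The ends of the range were Bmal1 at 1.09 (SE 1.03) and Per1 at -1.05 (SE 0.87).

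**Figure D3:**
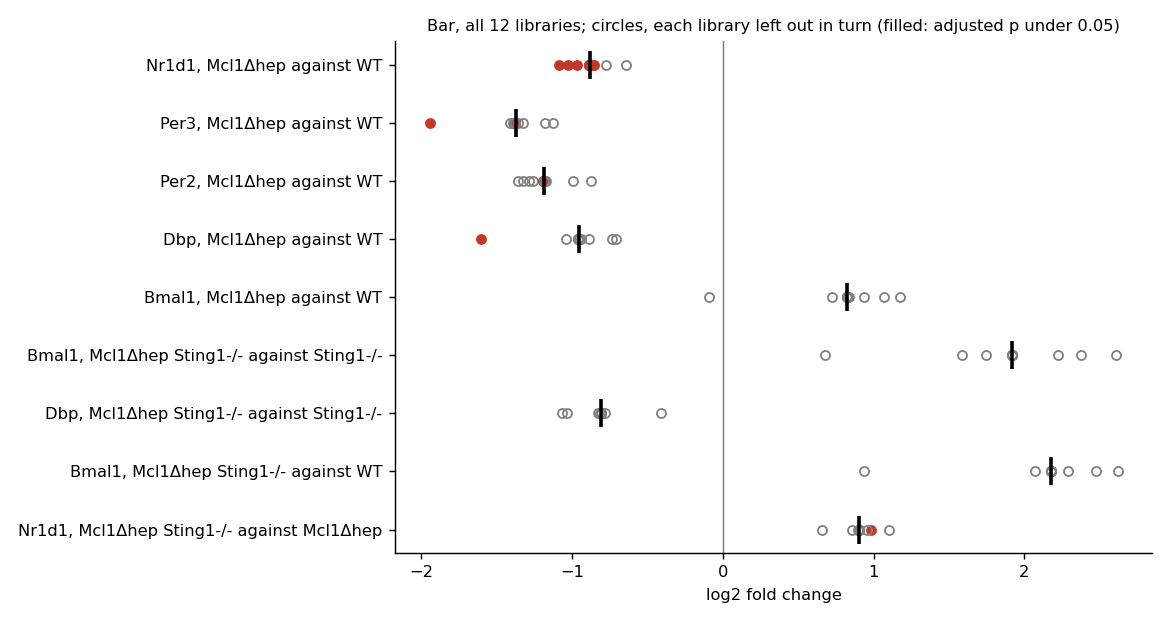
Log2 fold changes of 5 clock genes in the named comparisons with all 12 libraries (bars) and with each library left out in turn (circles, filled where edgeR's adjusted p is under 0.05). The value of Bmal1 in Mcl1Δhep against WT livers runs from -0.092 to 1.18, and that in Mcl1Δhep Sting1-/- against Sting1-/- livers from 0.68 to 2.61.

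The clock genes varied more between livers of a genotype than most genes did. The biological coefficient of variation, the spread between livers of 1 genotype beyond counting error as edgeR estimates it per gene, had a median of 0.421 over the 10 genes and of 0.210 over all tested genes. As percentiles of all tested genes, Ciart, Bmal1, and Per1 stood at 97.7, 97.1, and 95.3, and Per2, Per3, and Dbp at 93.6, 92.8, and 89.7. Clock and Cry1 followed at 78.6 and 76.3. Nr1d2 and Nr1d1 were ordinary in this respect, at 55.1 and 49.5. Nr1d1, which passed the test, thus had both a smaller spread and a smaller fold change than Per3, Per2, and Dbp, which did not pass. The distance between the highest and the lowest liver of a genotype was 0.16 on the log2 scale for Per3, 0.10 for Nr1d2, 0.41 for Bmal1, and 0.45 for Per1 in WT livers, against 2.74, 0.74, 2.76, and 2.81 in Mcl1Δhep Sting1-/- livers. For Dbp it was 0.30 in WT, 0.10 in Sting1-/-, 1.49 in Mcl1Δhep, and 1.91 in Mcl1Δhep Sting1-/- livers. Nr1d1 went the other way and was most even in Mcl1Δhep Sting1-/- livers, at 0.21, against 0.53 in WT and 0.99 in Mcl1Δhep livers. The difference in spread between genotypes was not tested.

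Much of this spread was carried by a single liver. Mcl1Δhep Sting1-/- replicate 1 held the highest or the lowest of the 12 values for 7 of the 10 genes. It was highest for both activators, Bmal1 and Clock, and lowest for 5 of the genes that the activators drive, Per1, Per2, Per3, Dbp, and Ciart. No other library held more than 3 such ends, the 3 being those of WT replicate 1, which was highest for Per2, Per3, and Dbp. Per1 was nearly as low in Mcl1Δhep Sting1-/- replicate 2 (3.68 CPM), so that its wide range in that group came from the high replicate 3 (20.3 CPM). Nr1d1 stayed at 24.7 CPM in the outlying liver, within the WT range of 19.3 to 27.9 CPM. So did Cry1, at 6.61 CPM, within its WT range of 4.06 to 7.65 CPM. Mcl1Δhep replicate 1 leaned the same way in part, with the second highest Bmal1, the second lowest Ciart, Per2, Per3, and Dbp, and the lowest Nr1d2 of the 12 libraries. The ratio of Dbp to Bmal1 counts, used here only to set libraries side by side, was 2.05 in Mcl1Δhep Sting1-/- replicate 1 and 9.14 in Mcl1Δhep replicate 1. It was 29.5 and 54.3 in the other Mcl1Δhep Sting1-/- livers, 30.2 and 112 in the other Mcl1Δhep livers, 87.1 to 116 in WT livers, and 45.7 to 178 in Sting1-/- livers.

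**Figure D4:**
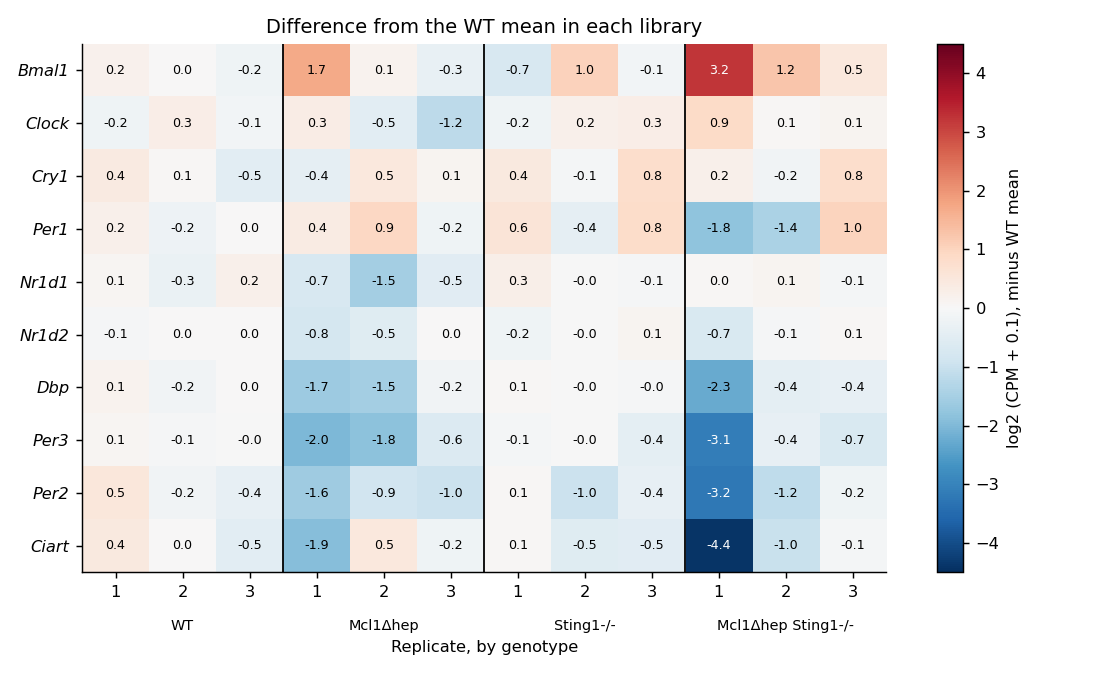
Difference of each clock gene in each library from the mean of the 3 WT livers, in log2 (CPM + 0.1), with red for higher and blue for lower. Bmal1 is red and Dbp, Per3, Per2, and Ciart are blue in replicate 1 of both groups with Mcl1 deletion, and the column of Mcl1Δhep Sting1-/- replicate 1 holds the darkest cells.

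The outlying liver was also the only Mcl1Δhep Sting1-/- liver with Y-linked expression (141 CPM). The WT livers with Y-linked expression, replicates 2 and 3, had 1.63 and 1.39 CPM of Bmal1 and 142 and 161 CPM of Dbp, next to 1.87 and 175 CPM in the WT liver without it. The part of sex or of collection time in the values of the outlying liver was not tested. The total of this liver was the smallest of the 12, at 28826367 counts, and Bmal1 rested on 479 counts and Dbp on 981 counts in it. With the level of Y-linked genes in the model, Per3 (log2 fold change -2.31, adjusted p = 0.0385, edgeR) and Per2 (-2.27, adjusted p = 0.0223) passed in Mcl1Δhep against WT livers. Nr1d1 did not pass in that fit, where 9.96% of all tested genes were called. The 3 Mcl1Δhep livers and WT replicate 1 had at most 0.190 CPM of Y-linked genes. Genotype and Y-linked expression thus went together in these groups apart from WT replicate 1, and their parts can hardly be told apart.

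Across livers, after each value was set against the mean of its genotype, some of the clock genes went with Dbp and others against it. Dbp and Per3 were high and low together (Pearson's r = 0.97, Spearman's rho = 0.92 over 12 libraries, adjusted p = 0.0440 and 0.0486, exact two-sided permutation within genotypes, 9 genes tested against Dbp). Clock went opposite to Dbp (r = -0.83, rho = -0.90, adjusted p = 0.0208 for both, exact permutation), and so did Bmal1 (r = -0.78, rho = -0.76, adjusted p = 0.0440 and 0.0729, exact permutation). Before adjustment, these p-values were 0.0123 and 0.0108 for Per3, 0.00231 and 0.00231 for Clock, and 0.0147 and 0.0270 for Bmal1, where the smallest that 1296 permutations can give is 0.000772. For Nr1d2 (r = 0.91, rho = 0.76), Ciart (r = 0.76, rho = 0.60), and Per2 (r = 0.76, rho = 0.69), the adjusted p-values were 0.147, 0.181, and 0.104 for r and 0.183, 0.263, and 0.0729 for rho (exact permutation). Nr1d1 (r = 0.33, rho = 0.43), Per1 (r = 0.28, rho = 0.17), and Cry1 (r = 0.14, rho = 0.36) followed Dbp little, with adjusted p-values of 0.618 to 0.748 for r and 0.344 to 0.631 for rho (exact permutation). The 2 libraries farthest from the median of Dbp were Mcl1Δhep Sting1-/- replicate 1 and Mcl1Δhep replicate 3. Without them r was 0.94 for Per3, -0.73 for Clock, and -0.61 for Bmal1. Without centring on genotype, over all 12 libraries, r with Dbp was 0.98 for Per3 and -0.77 for Bmal1, but only -0.38 for Clock (log2 CPM with a prior count of 2). Values of 1 library share its scaling and the liver it came from, so that these relations describe livers and not pairs of genes.

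**Figure D5:**
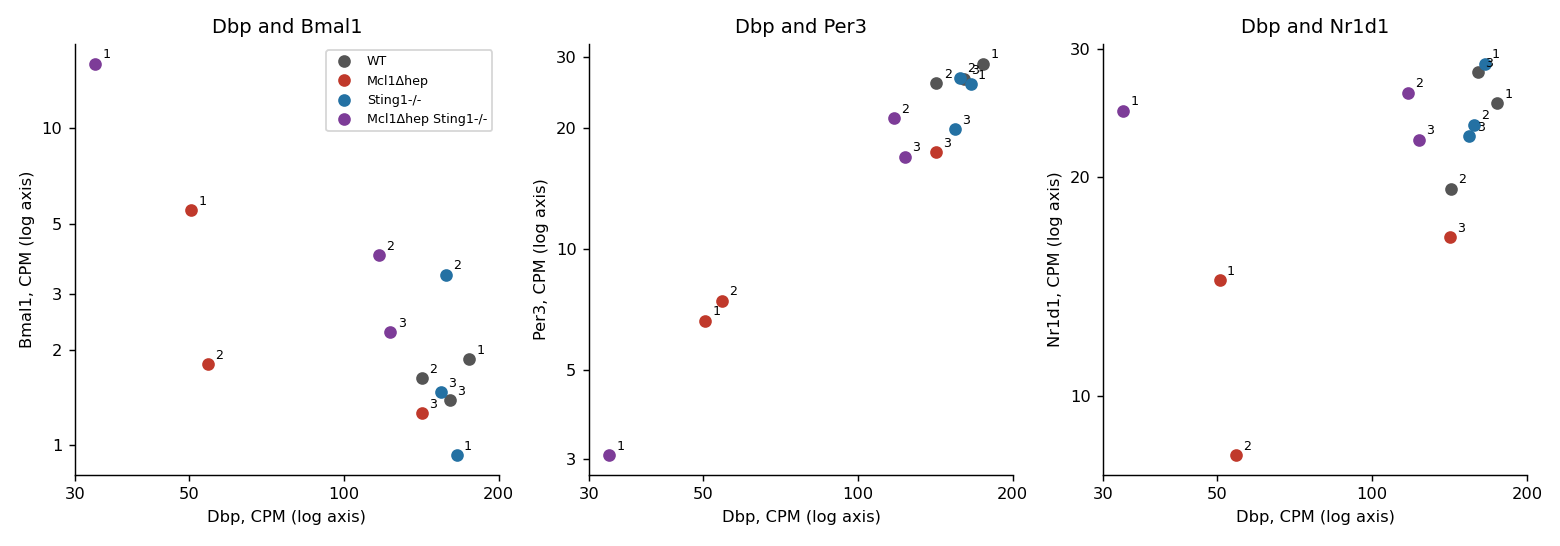
Dbp against Bmal1, Per3, and Nr1d1 in the 12 libraries, in CPM on log axes, with colors for genotypes and replicate numbers beside the points. Per3 follows Dbp (r = 0.97 after centring on genotype) and Bmal1 runs opposite (r = -0.78), while Nr1d1 (r = 0.33) sets the 3 Mcl1Δhep livers apart from the other 9.

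Among all tested genes outside the 10 with a mean of at least 5 CPM, those whose deviations within genotypes followed Dbp most closely were Tef (r = 0.98), Glul (r = 0.98), Wee1 (r = 0.98), Rgn (r = 0.97), and Macrod1 (r = 0.95), over 12 libraries. Tef encodes a transcription factor of the same PAR bZIP family as Dbp, and Wee1 encodes a kinase that holds back entry into mitosis and is a known clock target in liver. Glul encodes glutamine synthetase of pericentral hepatocytes. Those most opposite were Dhx40 (r = -0.94), Sdsl (r = -0.93), Crlf2 (r = -0.92), Etnppl (r = -0.91), and Pqbp1 (r = -0.91). Without centring on genotype, 2 of these 10 genes (Tef and Macrod1) were again among the 10 ends.

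The rest of the clock loop was taken from a list of 16 genes, of which 15 were tested. In Mcl1Δhep against WT livers, 3 were called lower and 0 higher, beside 9.43% and 10.8% of all tested genes. The median log2 fold change was -0.16, and 3 genes were lower and 3 higher without overlap, beside 17.1% and 16.2% of all tested genes. Cry2, the other Cry gene beside Cry1, had 30.7, 25.2, and 30.8 CPM in WT and 14.3, 17.2, and 20.2 CPM in Mcl1Δhep livers (log2 fold change -0.75, SE 0.22, adjusted p = 0.0334, edgeR). Bhlhe41, a repressor that binds E-boxes, had 2.82, 6.76, and 5.78 CPM in WT and 0.497, 0.857, and 2.31 CPM in Mcl1Δhep livers (-2.09, SE 0.51, adjusted p = 0.0169, edgeR). It had 1.13, 1.19, and 0.627 CPM in Sting1-/- and 0.902, 1.10, and 0.739 CPM in Mcl1Δhep Sting1-/- livers, so that it was low in all groups but WT, and it was called lower in Mcl1Δhep Sting1-/- against WT livers (-2.48, SE 0.52, adjusted p = 0.0317). No other gene of the list was called in the other comparisons. Npas2, which can replace Clock, had 1.10 CPM in Mcl1Δhep Sting1-/- replicate 1, the liver with the most Bmal1, and 0.164 to 0.611 CPM in the other 11 libraries.

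Output genes of the clock, a list of 16 that were all tested, had 2 called lower and 0 higher in Mcl1Δhep against WT livers. The shares of all tested genes were 9.43% and 10.8%. Of the list, 7 were lower without overlap, beside 17.1% of all tested genes. The median of the list was -0.63. Hlf, the third PAR bZIP factor beside Dbp and Tef, had 32.1, 30.3, and 25.7 CPM in WT and 9.33, 12.3, and 14.6 CPM in Mcl1Δhep livers (log2 fold change -1.28, SE 0.22, adjusted p = 0.00374, edgeR). In Sting1-/- livers Hlf had 26.9, 22.1, and 23.9 CPM, and in Mcl1Δhep Sting1-/- livers 11.3, 17.8, and 20.1 CPM, lower without overlap and not called (-0.57, SE 0.21, adjusted p = 0.323). Elovl3, a fatty acid elongase, was called lower too (-6.80, SE 1.95, adjusted p = 0.0312). It had 106, 134, and 240.0 CPM in the 3 livers with Y-linked expression, WT replicates 2 and 3 and Mcl1Δhep Sting1-/- replicate 1, and at most 7.25 CPM in the other 9. Tef, which was not called (-0.97, SE 0.34, adjusted p = 0.0647), had 212, 205, and 198 CPM in WT and 73.7, 86.6, and 154 CPM in Mcl1Δhep livers, and 63.8 CPM in Mcl1Δhep Sting1-/- replicate 1. The list gave 0 calls in the other comparisons.

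Signals from outside that set or disturb the liver clock were read from further lists. Of 12 feeding and fasting genes, 2 rose and 2 fell in Mcl1Δhep against WT livers, where 10.8% of all tested genes were called higher and 9.43% lower. Fgf21 (log2 fold change 4.28, adjusted p = 0.0444, edgeR), a hormone of the fasted or stressed liver, and Igfbp1 (2.49, adjusted p = 0.0475) were higher, and Srebf1 (-1.30, adjusted p = 0.0114) and Fasn (-1.54, adjusted p = 0.0250), which serve fat synthesis after meals, were lower. Of 8 glucocorticoid response genes, 3 rose, Sgk1 (1.30, adjusted p = 0.0114), Mt1 (2.69, adjusted p = 0.0387), and Mt2 (4.29, adjusted p = 0.0113), and the metallothioneins Mt1 and Mt2 also respond to zinc and inflammation. Of 7 immediate early genes tested, Jun (1.497, adjusted p = 0.0149) and Atf3 (2.90, adjusted p = 0.00227) rose, and Atf3 also rose in Mcl1Δhep Sting1-/- against WT livers (2.15, adjusted p = 0.0260). Of 12 heat shock and temperature genes, which follow the body temperature rhythm, 0 were called in any comparison. Apart from Atf3, no gene of these lists was called in the other comparisons. Of the 15 calls described for the genes of these lists, of the loop list, and of the output list, only that of Atf3 in Mcl1Δhep against WT livers was kept under each alternative. With the share of small structured RNAs in the model 11 were lost, and 11 were lost without at least 1 of the libraries. The part of these genes in the levels of the clock genes was not tested.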

How the data were processed

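Total RNA-seq of 12 livers, 3 per genotype, was analysed. RNA came from frozen liver and was sequenced on an Illumina NovaSeq, and the labels and the study's methods name different RNeasy kits. Per gene and liver, the authors deposited unnormalized counts of reads, with Ensembl identifiers. The submitters' processing notes name STAR, featureCounts, and GRCm39, with versions, annotation, and use of strand not given in the sources used here. Gene names and positions are those of GENCODE vM39 (GRCm39), which holds 39533 of 40551 identifiers.

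CPM with TMM factors and the quasi-likelihood test were computed with edgeR 4.0.16 in R 4.3.3 (filterByExpr by genotype, all 12 libraries in the model, no covariates, Benjamini-Hochberg adjustment over 15070 genes, threshold 0.05). The test was checked on simulated counts. Fold changes of DESeq2 1.42.0 were an alternative. TPM used summed exon lengths. Correlations used log2(CPM + 0.1) minus the genotype mean. Promoters were read from RefSeq windows of GRCm38.p6 by gene name, and their positions are not those of GRCm39.

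The 10 genes and the lists were chosen with earlier results of these data known. All 10 genes are named in each comparison where they were called, did not overlap, or ended the range. Called genes of the clock loop, output, and signal lists are named, except that 1 is not reported here, and marker lists are given by counts, while Tef and Npas2 were picked once their values were known. The labels do not say whether livers of a group came from separate litters, and p-values measure the spread between these livers. The libraries were compared within genotypes, and none was a duplicate. Precision is limited by 28826367 to 45266387 counts per library and by 3 livers per genotype, and a share of counts has no interval here because PCR reads are not independent molecules. Alternatives were another normalization, no filter, DESeq2, only the groups compared, 2 covariates, a replicate block, and the removal of single libraries.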

Additional observations from a re-analysis of the deposited data

How the results depend on the processing

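The number of clock genes called in Mcl1Δhep against WT livers was 1. It stayed 1 with RLE size factors (20.3% of all tested genes called), without a filter (10.7%), and with DESeq2 (25.9%). It was also 1 with only the compared groups (8.15%), where the gene was Per2 (-1.16, adjusted p = 0.0484, edgeR) and no longer Nr1d1. It was 2 when the model held the level of Y-linked genes (9.96% of all tested genes called), 0 when it held the small RNA share (2.70%), and 0 to 3 when each library was left out. It was 0 without WT replicate 3 (10.3%) or Mcl1Δhep replicate 2 (8.09%) and 3 without Mcl1Δhep replicate 3 (16.7%) or Mcl1Δhep Sting1-/- replicate 1 (18.8%), against 20.2% called with all libraries. In Mcl1Δhep Sting1-/- against Sting1-/- livers it was 0, and 0 to 1 when each library was left out. In Mcl1Δhep Sting1-/- against Mcl1Δhep livers it was 0, 1 with DESeq2, and 0 to 2 when each library was left out. It was 0 under each alternative in the other comparisons. Of 529 alternative values for 28 fold changes of clock genes, 12 changed sign, and 1 of 342 for 18 fold changes of other named genes did. Bmal1 in Mcl1Δhep against WT livers ran from -0.092 (without Mcl1Δhep replicate 1) to 1.18 when each library was left out. The difference of the Mcl1 effect for Bmal1 was -0.22 with the Y-linked covariate and ran from -0.15 (without Mcl1Δhep Sting1-/- replicate 1) to 2.01 when each library was left out. Per1 in Sting1-/- against WT livers was -0.39 with the Y-linked covariate. In Mcl1Δhep against WT livers, Clock was 0.030 with the Y-linked covariate and 0.11 with the small RNA share, Cry1 was -0.18 and -0.39 with these, and Thra was 0.11 with the latter. When each library was left out there, Cry1 ran from -0.17 (without Mcl1Δhep replicate 2, with -0.15 without WT replicate 3) to 0.29, and Ciart from -0.89 to 0.13 (without Mcl1Δhep replicate 1). Clock in Mcl1Δhep Sting1-/- against Sting1-/- livers ran from -0.040 (without Mcl1Δhep Sting1-/- replicate 1) to 0.42. The cause of these changes was not tested beyond the removal of the library or the covariate itself. With a replicate block, 1 clock gene was called in Mcl1Δhep against WT livers (17.2% of all tested genes) and 0 in each other comparison. Over all tested genes, same-numbered livers of different genotypes did not deviate together as a rule (correlations of -0.54 to 0.25, median -0.019). Such correlations cannot tell whether livers with the same number shared a litter or an hour of collection. The median over the 10 genes of the widest range within a genotype was 2.32 on the log2 scale in CPM and 2.30 in TPM. Depth limited Ciart and Bmal1 most, with as few as 14 and 32 counts in a library.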
